A study of Rattus norvegicus with 10 samples.

Results

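AP-1 factors and early growth response genes were followed in heart muscle cells of newborn rats that carried 1 of 2 overexpressed forms of the transcriptional coactivator YAP. The set holds 10 genes chosen by name, of 39784 gene names in the tables: Fos, Fosb, Fosl1 and Fosl2 (the FOS family), Jun, Junb and Jund (the JUN family), Atf3, and the zinc finger genes Egr1 and Egr2. Each gene had 1 row per table, and 9 of the 10 passed the filter on low values, a mean of at least 1 TPM over the 4 libraries. The groups were YAP5SA, labelled Ad-Xon-YAP5SA, and YAP5SA-S94A, labelled Ad-Xon-YAP5SA-S94A, with 2 RNA-seq libraries each. Both were made from wild type heart cells grown with fetal bovine serum. The labels give no time of harvest and no rat strain. The sample titles call the libraries of a group biological replicates, but do not say whether these came from separate cultures. The p values thus measure only the spread between these libraries. YAP5SA is an activated YAP whose inhibitory serines are changed to alanine, and YAP5SA-S94A carries a further change that disrupts binding to TEAD, the DNA-binding partner of YAP. Both groups overexpress a YAP form, and no RNA-seq library of untreated or GFP cells was used here. Each value below therefore sets one form against the other, and says nothing of the level in cells with neither. The series also has 6 CUT&RUN samples, which were not analysed here.

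AP-1 is a family of paired leucine zipper factors. JUN proteins can pair with each other or with a FOS protein, FOS proteins need a JUN partner, and the pairs bind the sequence TGANTCA. Fos, Fosb, Jun, Junb, Atf3, Egr1 and Egr2 are immediate early genes, which stimulated cells transcribe within minutes without new protein synthesis, while Fosl1 and Fosl2 are typically induced later and JUND is the more constantly expressed JUN protein. In human cancer cell lines AP-1 and YAP with TEAD are known to occupy shared enhancers. In heart muscle cells several of these genes are known to be induced by stretch and by hypertrophic stimuli.

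The FOS-type genes Fos and Fosl1, together with Atf3 and Egr1, rose in YAP5SA by 0.71 to 1.00 on the log2(TPM + 1) scale, and no JUN gene was called. Of the 9 tested genes 4 were called higher in YAP5SA, by an adjusted p under 0.05 in limma over 13420 tested genes, where 17.4% of all tested genes were called higher. None was called lower, where 15.5% of all tested genes were (32.9% in either direction). At an unadjusted p under 0.05 in limma the counts were 5 higher and 0 lower. The shares above are at an adjusted p and do not apply to these counts. In 6 of the 10 genes both YAP5SA libraries stood above both YAP5SA-S94A libraries, a pattern found in 34.5% of tested genes. The reverse pattern, held by none of the 10, was found in 33.8% of tested genes, and either pattern in 68.2%. In the other 4 (Fosb, Jun, Junb and Jund) the groups overlapped. The median log2 fold change of the 9 genes was 0.52, against 0.00015 for all tested genes. The number called changed with the library left out, and of the 4 called genes only Fosl1 kept its call whichever library was left out. With 1 library left out the log2 fold change was 0.74 to 1.13 for Fos and 0.89 to 1.10 for Fosl1. It was 0.56 to 0.86 for Atf3 and 0.69 to 0.96 for Egr1. With 2 libraries a group the smallest two-sided p of an exact permutation test is 0.333, and the calls thus depend on the variance that limma shares across genes.

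**Figure D1:**
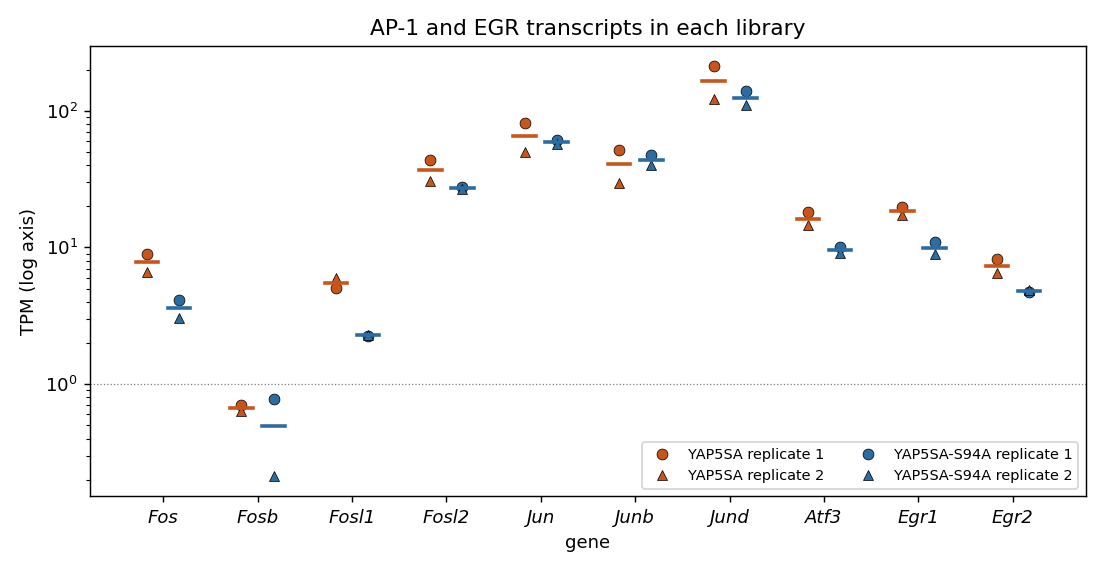
TPM of each of the 10 genes (log axis) in the 2 YAP5SA libraries (orange, left) and the 2 YAP5SA-S94A libraries (blue, right); circles are replicate 1, triangles replicate 2, short lines the means, and the dotted line marks 1 TPM. Both orange points lie above both blue points in Fos, Fosl1, Fosl2, Atf3, Egr1 and Egr2, and Jund is the most abundant of the 10 genes in every library.

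Fos encodes the founding FOS protein, a short-lived partner of JUN (chromosome 6, 105121170 to 105124036, plus strand, in build rn7 as for all gene positions here). It had 8.92 and 6.60 TPM in the YAP5SA libraries, against 4.13 and 3.03 TPM in the YAP5SA-S94A libraries. The lower YAP5SA library was still above the higher YAP5SA-S94A library. The ratio of the mean TPM was 2.17, with a log2 fold change of 0.93 (SE 0.23, limma adjusted p = 0.0182). The call was lost without YAP5SA replicate 1 (log2 fold change 0.74, limma adjusted p = 0.0681), without YAP5SA-S94A replicate 2 (0.76, limma adjusted p = 0.0852) and with no filter on low values (limma adjusted p = 0.0809). Read coverage of Fos was 18.2 and 10.0 reads per base in YAP5SA and 8.26 and 5.94 in YAP5SA-S94A, so the low level rests on thin coverage.

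Fosl1 encodes FRA1, a FOS-type protein that lacks the strong activation domain of FOS (chromosome 1, 202754549 to 202763057, plus strand). It had 5.05 and 6.02 TPM in YAP5SA, against 2.24 and 2.30 TPM in YAP5SA-S94A. The groups were clearly apart, and the YAP5SA-S94A libraries lay close together, at 2.27 ± 0.046 TPM (SD, n = 2). Read coverage of Fosl1 was 10.3 and 9.13 reads per base in YAP5SA and 4.48 and 4.52 in YAP5SA-S94A. Its levels thus rest on thinner coverage than those of Fos. The ratio of means was 2.44, the highest of the 10 genes, and the log2 fold change was 1.00 (SE 0.20, limma adjusted p = 0.00971). Fosl1 kept its call under each of the 15 alternatives that could test it; it did not pass a filter of at least 5 TPM.

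Fosl2 encodes FRA2, the FOS-family protein with the most abundant transcript here (chromosome 6, 24297898 to 24319219, minus strand). It had 43.5 and 30.5 TPM in YAP5SA, against 27.7 and 26.8 TPM in YAP5SA-S94A. The groups did not overlap, but the YAP5SA libraries differed from each other more than their lower one differed from YAP5SA-S94A. Fosl2 was not called (log2 fold change 0.41, SE 0.17, limma adjusted p = 0.116). Without YAP5SA replicate 2 the log2 fold change was 0.66 and the gene was called (limma adjusted p = 0.0108), and without YAP5SA replicate 1 it was 0.16.

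Fosb, the fourth FOS gene (chromosome 1, 78954312 to 78961492, minus strand), was near the limit of what these libraries can measure. It had 0.700 and 0.637 TPM in YAP5SA, against 0.773 and 0.214 TPM in YAP5SA-S94A, with coverage between 0.382 and 1.41 reads per base. The groups overlapped, and the mean of 0.581 TPM kept Fosb out of the test. It was also the only one of the 10 genes whose span overlaps another row of the tables, that of LOC103691049 on the opposite strand, at a mean of 0.41 TPM. Whether counting used the strand is not given in the sources used here, so reads of the pair may not be told apart.

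Atf3 encodes a stress-induced zipper protein that pairs with JUN proteins and often represses (chromosome 13, 102751278 to 102800520, minus strand). It had 18.0 and 14.5 TPM in YAP5SA, against 10.0 and 9.06 TPM in YAP5SA-S94A. Both YAP5SA libraries were higher, and the gap between the groups exceeded the gap within either. The ratio of means was 1.71 and the log2 fold change 0.71 (SE 0.17, limma adjusted p = 0.0166). The call was lost without YAP5SA-S94A replicate 2 (0.64, limma adjusted p = 0.0906) and with no filter (limma adjusted p = 0.0606).

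Egr1, a zinc finger factor induced through serum response factor, had the smallest p of the 10 genes (chromosome 18, 26462967 to 26466766, plus strand). It had 19.7 and 17.1 TPM in YAP5SA, against 10.99 and 8.94 TPM in YAP5SA-S94A. The groups did not overlap. The ratio of means was 1.85 and the log2 fold change 0.83 (SE 0.16, limma adjusted p = 0.00839). Without YAP5SA-S94A replicate 2 it was 0.69 and no longer called (limma adjusted p = 0.0558). Its relative Egr2, known for its role in Schwann cells and hindbrain (chromosome 20, 21051270 to 21056322, minus strand), had 8.22 and 6.46 TPM in YAP5SA, against 4.69 and 4.88 TPM in YAP5SA-S94A. Egr2 did not overlap between the groups either, but was not called (log2 fold change 0.52, SE 0.19, limma adjusted p = 0.0772). It was called without YAP5SA replicate 2 (0.67, limma adjusted p = 0.0444). The Schwann cell marker Sox10 stood at most at 0.188 TPM in any library.

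The promoters of Egr1 and Egr2 are shown because they share an arrangement of serum response factor and CREB letters, and that of Fosl1 because the gene had the highest ratio of means. They are RefSeq sequences of build GRCr8, from 250 bases before to 50 bases after the start, at chr18:26736828-26737127 (plus strand), chr20:21054392-21054691 (minus strand) and chr1:212183635-212183934 (plus strand). The table held 7 of the 10 genes; Fos, Jun and Atf3 were not matched. Capitals mark the CArG box, the site of serum response factor, and the core TGACG of the cAMP response element (CRE) read on either strand, CGTCA on the strand shown.
Egr1: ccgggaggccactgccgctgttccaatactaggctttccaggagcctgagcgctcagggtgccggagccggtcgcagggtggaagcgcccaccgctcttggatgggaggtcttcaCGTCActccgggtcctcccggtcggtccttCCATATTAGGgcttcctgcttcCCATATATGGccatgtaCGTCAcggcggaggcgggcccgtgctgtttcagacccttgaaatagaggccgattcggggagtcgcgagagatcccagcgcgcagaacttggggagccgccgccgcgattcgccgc
Egr2: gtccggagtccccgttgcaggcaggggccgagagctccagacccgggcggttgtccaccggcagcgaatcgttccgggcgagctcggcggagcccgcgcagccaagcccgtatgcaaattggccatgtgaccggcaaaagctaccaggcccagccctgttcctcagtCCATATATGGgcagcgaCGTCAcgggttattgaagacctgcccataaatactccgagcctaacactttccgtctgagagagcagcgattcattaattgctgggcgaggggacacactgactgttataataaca
Fosl1: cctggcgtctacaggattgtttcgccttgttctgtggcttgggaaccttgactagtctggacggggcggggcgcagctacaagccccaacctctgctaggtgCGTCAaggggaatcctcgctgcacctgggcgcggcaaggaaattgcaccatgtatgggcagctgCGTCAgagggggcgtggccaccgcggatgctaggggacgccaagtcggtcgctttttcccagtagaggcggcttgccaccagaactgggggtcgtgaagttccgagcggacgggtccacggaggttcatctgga

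Both EGR promoters held the CArG box CCATATATGG with its first base at −83 from the start and a CGTCA at −66, and Egr1 held a further CArG box, CCATATTAGG, at −105 and a further CGTCA at −135. A CArG box was found in 1.64% of 33469 rat promoters of the same length, and a CRE core in 21.2%. Fosl1 held 2 CRE cores, at −148 and −84, and no CArG box in this window. The other letters searched on both strands were the AP-1 site TGANTCA, in 7.33% of all promoters, the full CRE TGACGTCA, which contains the core (1.83%), the TEAD site GGAATG (14.2%), the EGR site GCGNGGGCG (4.98%) and the TATA box TATAAA (14.2%). None of the 7 promoters held TGANTCA or GGAATG. Fosb and Junb held a TATA box, at −180 (on the opposite strand) and −49. Jund held a full CRE at −221 and 3 EGR sites, at −139, −76 and −31, and Fosl2 held 2 EGR sites, at −249 and 8. Outside that full CRE, the CRE core was also found in Jund at −98 and in Junb at −155. These matches describe the letters only.

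The JUN genes, which encode the partners that FOS proteins need, were not called in either direction. Jun (chromosome 5, 109894175 to 109897268, minus strand) had 81.1 and 49.97 TPM in YAP5SA, against 60.8 and 57.5 TPM in YAP5SA-S94A. The YAP5SA libraries lay on either side of both YAP5SA-S94A libraries (log2 fold change 0.11, SE 0.21, 95% interval −0.39 to 0.60, limma adjusted p = 0.737). Junb, whose protein is a weaker activator than JUN (chromosome 19, 23176265 to 23178049, plus strand), had 51.7 and 29.6 TPM in YAP5SA, against 47.3 and 40.4 TPM in YAP5SA-S94A. Its groups overlapped in the same way (log2 fold change −0.16, SE 0.24, 95% interval −0.73 to 0.41, limma adjusted p = 0.662). Jund (chromosome 16, 18734121 to 18735799, minus strand) had 211 and 121 TPM in YAP5SA, against 139 and 110.2 TPM in YAP5SA-S94A. Its lower YAP5SA library fell between the YAP5SA-S94A libraries (log2 fold change 0.36, SE 0.25, 95% interval −0.22 to 0.95, limma adjusted p = 0.296). The interval of Jund holds the 0.71 called for Atf3, so a change of that size is not excluded for Jund. The 95% interval of Atf3 itself starts at 0.31, which the intervals of Jun and Junb also hold. A rise of 0.31 is thus not excluded for Jun or Junb either.

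**Figure D2:**
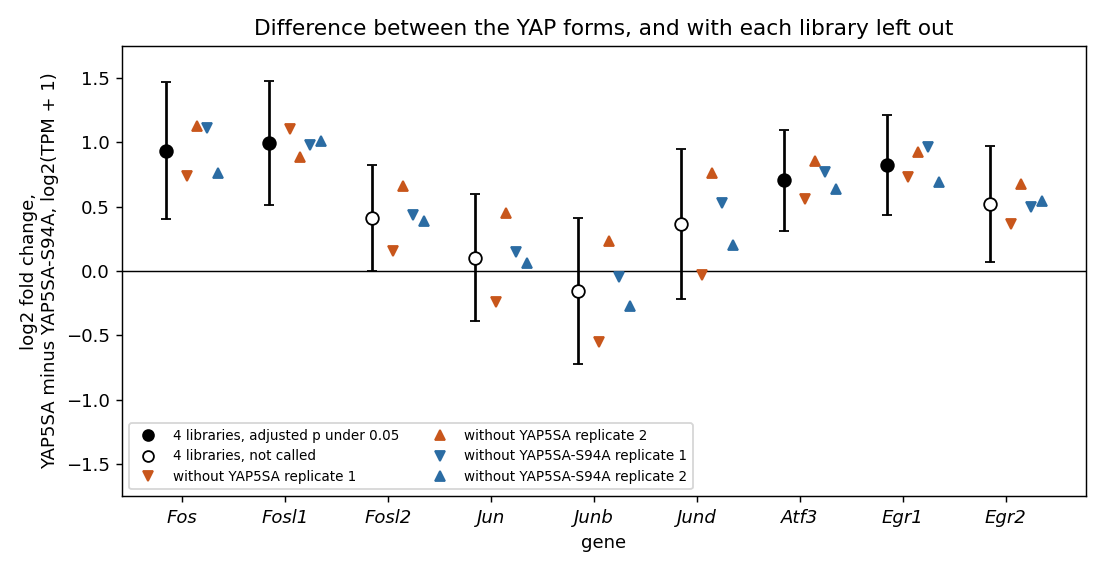
Log2 fold change (YAP5SA minus YAP5SA-S94A, log2(TPM + 1)) of the 9 tested genes from all 4 libraries (black circles with 95% intervals; filled where called) and with each library left out (triangles). The triangles of Fos, Fosl1, Atf3 and Egr1 all lie above 0, while those of Jun, Junb and Jund lie on both sides of it.

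The direction of the JUN genes depended on which YAP5SA library was used. Without YAP5SA replicate 1, Jun stood at −0.24 (limma adjusted p = 0.0891), Junb at −0.55 (called lower, limma adjusted p = 0.0321) and Jund at −0.034 (limma adjusted p = 0.877). Without YAP5SA replicate 2 the log2 fold changes were 0.45 for Jun and 0.76 for Jund (both called higher, limma adjusted p = 0.0193 and 0.0233) and 0.24 for Junb (limma adjusted p = 0.208). Jund was also called higher without YAP5SA-S94A replicate 1 (0.53, limma adjusted p = 0.0411).

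The same libraries differed in most of the set. Between YAP5SA replicates 1 and 2 the difference was 0.69 for Jun, 0.78 for Junb and 0.80 for Jund on the log2 scale, each above the 95th percentile of all tested genes (0.63). Of the 10 genes 9 were higher in replicate 1, Fosl1 being the exception, against 61.0% of all tested genes. Between YAP5SA-S94A replicates 1 and 2 the JUN genes differed by 0.080 to 0.33, and 8 of the 10 genes were higher in replicate 1. The median difference between these replicates over all tested genes was −0.00044. The YAP5SA libraries also differed in depth, at 5.10 gigabases of aligned sequence for replicate 1 and 4.02 for replicate 2, against 5.02 and 4.97 in YAP5SA-S94A. The part of depth in this spread was not tested.

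**Figure D3:**
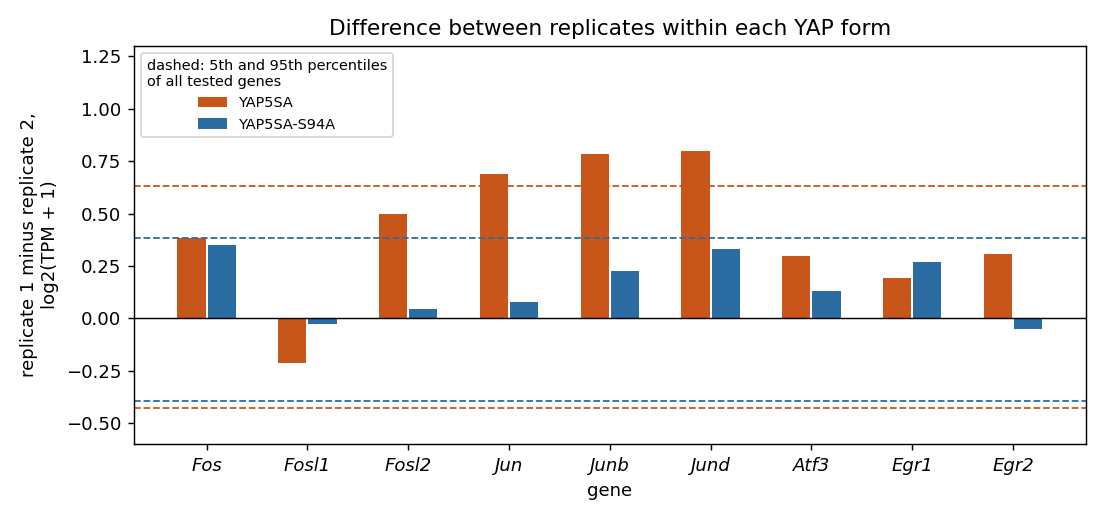
Replicate 1 minus replicate 2 on the log2(TPM + 1) scale within YAP5SA (orange, left) and within YAP5SA-S94A (blue, right), with dashed lines at the 5th and 95th percentiles of all tested genes of each group. The orange bars of Jun, Junb and Jund pass the upper orange line at 0.63, and the only orange bar below 0 is that of Fosl1.

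In YAP5SA the makeup of the JUN family differed less between the replicates than its total did. Summed TPM of the 3 JUN genes was 344 and 200.4 in YAP5SA, against 247 and 208 in YAP5SA-S94A. Junb made up 15.04% and 14.8% of that sum in YAP5SA, against 19.2% and 19.4% in YAP5SA-S94A. The ratio of Junb to Jund TPM was 0.245 in both YAP5SA libraries, against 0.341 and 0.366 in YAP5SA-S94A. Thus relative to Jund, Junb was lower in both YAP5SA libraries than in either YAP5SA-S94A library, a description for which no test was made. Jund took 61.4% and 60.3% of the sum in YAP5SA, against 56.2% and 53.0% in YAP5SA-S94A, and the share of Jun overlapped between the groups.

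In the FOS family Fosl2 held most of the transcripts in every library, but less of them in YAP5SA. It made up 74.8% and 69.7% of the summed TPM in YAP5SA, against 79.5% and 82.8% in YAP5SA-S94A. Fos took 15.3% and 15.1% in YAP5SA, against 11.9% and 9.37% in YAP5SA-S94A. Fosl1 took 8.68% and 13.8% in YAP5SA, against 6.43% and 7.13% in YAP5SA-S94A. The sum over the FOS family was 58.2 and 43.8 TPM in YAP5SA, against 34.8 and 32.3 TPM in YAP5SA-S94A. JUN transcripts outnumbered FOS transcripts in each library, by 5.90 and 4.58 to 1 in YAP5SA and by 7.10 and 6.44 to 1 in YAP5SA-S94A. Egr1 exceeded Egr2 by 2.40-fold and 2.65-fold in YAP5SA and by 2.34-fold and 1.83-fold in YAP5SA-S94A.

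**Figure D4:**
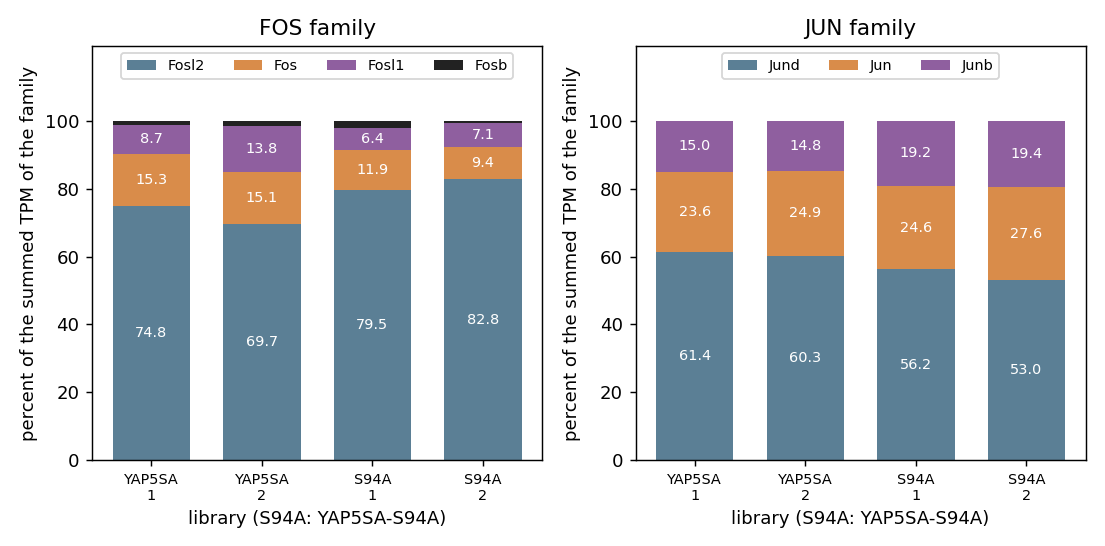
Percent of the summed TPM of the FOS family (left) and of the JUN family (right) taken by each gene, with 1 bar per library, YAP5SA left of YAP5SA-S94A. The Junb segment is 15.04% and 14.8% in YAP5SA and 19.2% and 19.4% in YAP5SA-S94A, and the Fosl2 segment is smaller in both YAP5SA bars.

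On the TPM scale, which allows levels of different genes to be compared, the order was nearly the same in both groups. Jund came first, at a mean of 166 TPM in YAP5SA and 125 in YAP5SA-S94A, followed by Jun, Junb, Fosl2, Egr1 and Atf3. In YAP5SA the ranges of the neighbours Jun and Junb, Junb and Fosl2, Egr1 and Atf3, and Fos and Egr2 overlapped. In YAP5SA-S94A only Egr1 and Atf3 overlapped. Fos stood above Egr2 in YAP5SA by their means (7.76 and 7.34 TPM) and below it in YAP5SA-S94A (3.58 and 4.78 TPM). Fosl1 and Fosb were the lowest in both groups. The profile of Egr1 over the 4 libraries was most like those of Trmt61a, a tRNA methyltransferase gene, Pid1 and Strip2, at Euclidean distances of 0.033, 0.055 and 0.056 between centred log2 values. With 4 libraries this likeness is a description.

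Among relatives of AP-1 outside the set, the small MAF genes moved in opposite directions. Small MAF proteins are zipper proteins without an activation domain that pair with each other or with NRF2-type factors. Mafk had 86.3 and 63.4 TPM in YAP5SA, against 28.5 and 23.2 TPM in YAP5SA-S94A (log2 fold change 1.49, limma adjusted p = 8.81e-04). Maff had 24.0 and 20.8 TPM in YAP5SA, against 10.2 and 8.60 TPM in YAP5SA-S94A (log2 fold change 1.17). Mafg had 25.5 and 22.7 TPM in YAP5SA, against 46.1 and 41.0 TPM in YAP5SA-S94A (log2 fold change −0.83, limma adjusted p = 0.00287). The ratio of Mafk to Mafg was thus 3.39 and 2.79 in YAP5SA, against 0.618 and 0.566 in YAP5SA-S94A. Jdp2, which encodes a repressor that pairs with JUN proteins, rose by 0.83 to 34.9 and 30.8 TPM in YAP5SA, against 19.0 and 17.0 TPM in YAP5SA-S94A. Of 8 tested relatives 3 rose and 2 fell, the other being Maf (−0.91), named after its values were seen, with a median of −0.16. Over all tested genes 17.4% were called higher and 15.5% lower.

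The EGR corepressors split as well. NAB proteins bind EGR factors and restrain them. Nab1 had 29.5 and 34.3 TPM in YAP5SA, against 56.5 and 54.1 TPM in YAP5SA-S94A (a log2 fold change of −0.78, SE 0.12, limma adjusted p = 0.00303). Nab2, itself an EGR1 target, had 39.4 and 30.2 TPM in YAP5SA, against 24.2 and 24.4 TPM in YAP5SA-S94A (a log2 fold change of 0.49, SE 0.15, limma adjusted p = 0.0446). The call on Nab2 was lost without YAP5SA replicate 1 (limma adjusted p = 0.074), without YAP5SA-S94A replicate 1 (0.148) or 2 (0.138), with FPKM (0.0865), with no filter (0.11), with the mitochondrial chromosome left out (0.0555) and without an intensity trend (0.0829). The other EGR genes, Egr3 and Egr4, were under the filter.

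Of 30 tested other immediate early genes 18 rose and 3 fell, with a median log2 fold change of 0.66. Among all tested genes the shares called were 17.4% higher and 15.5% lower. Ccn1, a matricellular protein gene that YAP and TEAD are known to activate directly, had 522 and 438 TPM in YAP5SA, against 39.9 and 36.1 TPM in YAP5SA-S94A. Plk2, a polo-like kinase gene, rose by 1.86 on the log2 scale to 192 and 197 TPM, against 47.9 and 58.0 TPM in YAP5SA-S94A. Csrnp1, a nuclear protein gene, rose by 1.69 and Myc, the growth-promoting transcription factor gene, by 1.45. The genes that fell, named after their values were seen, were the nuclear receptor gene Nr4a1 (log2 fold change −1.55, limma adjusted p = 0.00487), the ERK phosphatase gene Dusp5 (−0.60, limma adjusted p = 0.0228) and the RNA-binding protein gene Zfp36l1 (−0.37, limma adjusted p = 0.05). The number that rose was between 14 and 20 with 1 library left out. Leaving out YAP5SA replicate 1 gave 5 that fell, leaving out YAP5SA replicate 2 or YAP5SA-S94A replicate 1 gave 1, and leaving out YAP5SA-S94A replicate 2 gave 2. Dusp5 lost its call without YAP5SA replicate 2 (limma adjusted p = 0.0518) and without YAP5SA-S94A replicate 1 (0.137), and Zfp36l1 without either of these (0.0626 and 0.244) or YAP5SA-S94A replicate 2 (0.191). With no filter and without an intensity trend the calls on both Dusp5 (limma adjusted p = 0.0742 and 0.0504) and Zfp36l1 (0.106 and 0.117) were lost. Zfp36l1 also lost its call with FPKM (0.0721) and with pseudocounts of 0.1 (0.0533) and 0.5 (0.051).

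**Figure D5:**
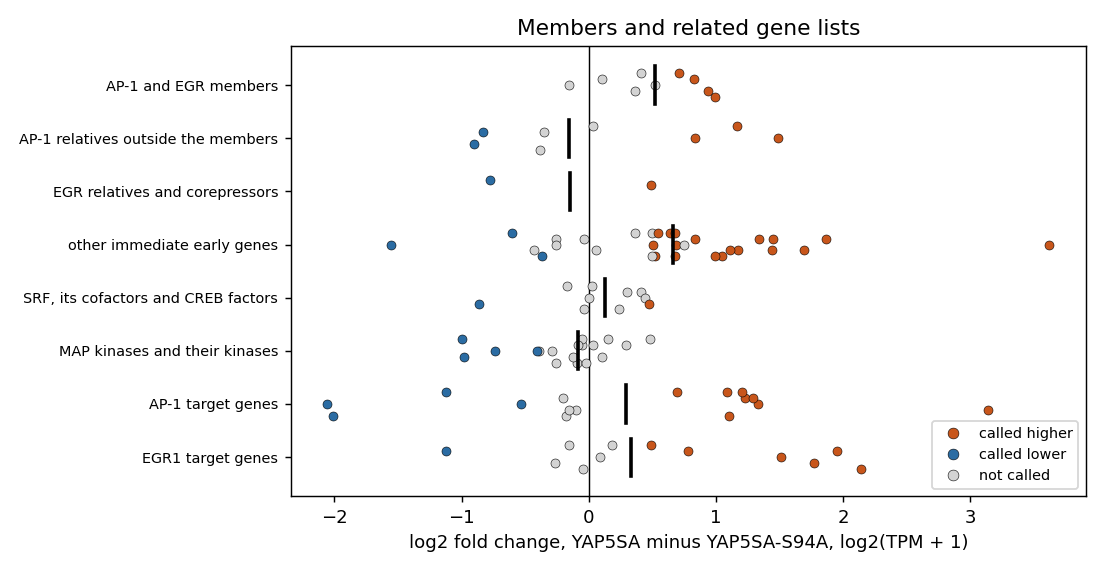
Log2 fold change (YAP5SA minus YAP5SA-S94A, log2(TPM + 1)) of the 9 tested AP-1 and EGR genes and of the tested genes of 7 related lists; each point is 1 gene, coloured by its call, and black bars are medians. The median is 0.52 for the set and 0.66 for other immediate early genes, and the list of MAP kinases has no point called higher.

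Genes that act upstream of these factors were called in both directions. Of all tested genes 17.4% were called higher and 15.5% lower (32.9% in either direction). Of 10 tested genes for serum response factor, its cofactors and CREB-type factors 1 rose and 1 fell. Srf itself had 37.9 and 37.5 TPM in YAP5SA, against 41.8 and 35.8 TPM in YAP5SA-S94A. Elk1, which carries ERK signals to serum response factor, fell by 0.87 on the log2 scale (limma adjusted p = 0.00299), and the cardiac cofactor gene Myocd rose by 0.47 (limma adjusted p = 0.0263). The call on Myocd was lost without YAP5SA-S94A replicate 1 (limma adjusted p = 0.231) or 2 (0.107), with no filter (0.0541), with FPKM (0.053) and without an intensity trend (0.0505). Of 18 tested genes for MAP kinases and their kinases 1 was higher and 5 were lower at an unadjusted p under 0.05 in limma. The shares of called genes do not apply to these counts. By adjusted p none rose and 4 fell. Those that fell were Map3k5, the stress kinase ASK1 (−0.98, limma adjusted p = 0.0016), Map2k6 (−0.997), Map3k1 (−0.74) and Mapk9, the JUN kinase JNK2 (−0.41). Without YAP5SA-S94A replicate 1 the calls on Map2k6 (limma adjusted p = 0.0556) and Mapk9 (0.352) were lost, and without replicate 2 those on Map3k1 (0.156) and Mapk9 (0.145). Mapk9 also lost its call without YAP5SA replicate 1 (limma adjusted p = 0.0704), with no filter (0.0771) and without an intensity trend (0.0796), and Map3k1 with no filter (0.0569).

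Known targets of AP-1 and EGR1 were called in both directions, beside 17.4% of all tested genes called higher and 15.5% called lower. Of 16 tested AP-1 target genes 8 rose and 4 fell, with a median of 0.30. Hbegf, an EGF-family ligand gene, had 51.8 and 70.6 TPM in YAP5SA, against 5.35 and 6.70 TPM in YAP5SA-S94A (a log2 fold change of 3.14, SE 0.19, limma adjusted p = 5.03e-05). Ccnd1 (cyclin D1) rose by 1.23. Hmox1, heme oxygenase 1, fell by 2.01 to 75.1 and 61.1 TPM, against 263 and 288 TPM in YAP5SA-S94A. The others that fell, named after their values were seen, were Mt1 (−2.06), Vegfa (−1.12) and Spp1 (−0.54), the last losing its call without YAP5SA-S94A replicate 2 (limma adjusted p = 0.0804). The other 6 genes of that list were under the filter. Of 12 tested EGR1 target genes 6 rose and 1 (Vegfa, also on the AP-1 list) fell, with a median of 0.33. F3 (tissue factor) rose by 1.95, Icam1, a cell adhesion molecule gene, by 1.77 and Fn1 (fibronectin) by 1.51. These genes are known to answer to other factors too, YAP with TEAD among them.

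Markers of heart muscle were abundant, with a summed level of 17928 to 18861 TPM over 8 genes in YAP5SA and 25569 to 26117 TPM in YAP5SA-S94A. Of the 8 genes 6 fell, where 15.5% of all tested genes were called lower. Fibroblast markers were present too, at 6748 to 8527 TPM over 8 genes in YAP5SA and 6888 to 7243 TPM in YAP5SA-S94A, with 2 of 8 lower and none higher in limma. Macrophage and monocyte markers summed to 529 to 549 TPM over 6 genes in YAP5SA and 820 to 821 TPM in YAP5SA-S94A, endothelial markers over 6 genes to 10.3 to 11.02 TPM in YAP5SA and 27.6 to 29.1 TPM in YAP5SA-S94A, and smooth muscle and pericyte markers over 5 genes to 167 to 186 TPM in YAP5SA and 164 to 179 TPM in YAP5SA-S94A. Single genes carried 2 of these gaps. Of the endothelial markers only Kdr was called, at 3.97 and 3.33 TPM in YAP5SA, against 21.3 and 19.9 TPM in YAP5SA-S94A. Of the macrophage and monocyte markers Lyz2 (438 and 428 TPM in YAP5SA, against 714 and 709.9 TPM in YAP5SA-S94A) and Cd68 fell, whereas Csf1r rose, to 38.2 and 37.5 TPM in YAP5SA, against 14.6 and 12.9 TPM in YAP5SA-S94A. T cell markers summed to 7.04 to 7.11 TPM in YAP5SA and 8.30 to 10.5 TPM in YAP5SA-S94A, with Cd3e and Cd3d at 0 in every library. Most of that sum was Cd4, at 5.64 and 5.19 TPM in YAP5SA, against 8.30 and 9.73 TPM in YAP5SA-S94A. Cd4 was called lower (limma adjusted p = 0.0303). Cd3g, under the filter, had 1.40 and 1.39 TPM in YAP5SA, against 0 and 0.291 TPM in YAP5SA-S94A. Schwann cell markers summed to 2.79 to 5.32 TPM in YAP5SA and 6.55 to 6.57 TPM in YAP5SA-S94A. The part of other cell types in the differences above was not tested, and in bulk libraries fewer cells of a type and less RNA per cell cannot be told apart.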

How the data were processed

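RNA-seq tables of 4 libraries were used, 2 of YAP5SA and 2 of YAP5SA-S94A, with groups and replicate numbers taken from the sample titles. Per the submitters' processing notes, the tools included fastp, HISAT2 2.2.1 and StringTie 2.2.1 and the build was rn7; their settings, and whether counting used the strand, were not given in the sources used here. Per the labels, libraries were directional and made from poly(A) RNA. TPM and FPKM values were computed by the authors. The deposited tables also give coverage per base, whose commonest ratio to FPKM was taken as the aligned gigabases of a library. No read counts were used, and no counting interval is given.

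Rows that shared a gene name were summed. Genes with a mean of at least 1 TPM (13420) entered a limma 3.58.1 model of log2(TPM + 1) in R 4.3.3, as YAP5SA minus YAP5SA-S94A, with 2 residual and 5.09 prior degrees of freedom, an intensity trend, Benjamini-Hochberg adjustment over all tested genes and a threshold of 0.05. The scale understates changes of low genes. The method was run on simulated data, and the outcome is not given here. Changes were placed only in more abundant genes, so the simulation does not cover genes as low as Fos and Fosl1. Python 3.11.15 with numpy 2.4.6, pandas 2.3.3 and, for figures, matplotlib 3.10.9 did the rest.

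The 10 genes, the 7 related lists and the 8 marker lists were chosen with earlier results of these data known. Named from each list were up to 4 called genes with the smallest p, or 2 by level where none was called. The alternatives were other pseudocounts, filters, units, scalings, a variance model without trend, a stricter threshold, the highest row of a name, leaving out each library, and a block for the replicate number. A few genes that the naming rule selects are not reported here.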

Additional observations from a re-analysis of the deposited data

How the results depend on the processing

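Of 16 alternatives, all planned, each kept the direction of Fos, Fosl1, Fosl2, Atf3, Egr1 and Egr2 wherever the gene was tested, with log2 fold changes of 0.73 to 1.13 for Fos, 0.73 to 1.24 for Fosl1, 0.56 to 0.86 for Atf3 and 0.69 to 0.96 for Egr1. The sign reversed without YAP5SA replicate 1 for Jun (−0.24) and Jund (−0.034), and without YAP5SA replicate 2 for Junb (0.24); with 1 library left out Jun ranged from −0.24 to 0.45, Junb from −0.55 to 0.24 and Jund from −0.034 to 0.76. The cause was not tested. The number of the 10 genes called higher, 4 in the report, was 2 with no filter, where more genes are tested, 2 at an adjusted p under 0.01, and 1 to 8 with 1 library left out, where the lone library of a group is assumed to vary like the others. The number called lower, 0 in the report, was 0 to 1. Over all genes, at an adjusted p under 0.01, 1439 were called higher (2337 at 0.05) and 1046 lower (2083 at 0.05), and with 1 library left out 1700 to 2610 were higher and 1312 to 2739 lower. Calls split 2230 higher and 2443 lower under quantile normalization and 2134 and 2660 with the mitochondrial chromosome left out, where the median of all genes moved to −0.044 and −0.066.

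The replicate numbers do not mark a shared culture in the labels, whose library names carry other numbers, so the block may not join libraries that belong together, and deviations of same-numbered libraries correlated at r = 0.101 over genes with only 2 pairs. With the replicate block 6 of the 10 genes were called higher, adding Fosl2 (limma adjusted p = 0.0351) and Jund (0.0228), and over all genes 2726 were higher and 2593 lower.

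Among the lists, the number of other immediate early genes called higher was 13 to 20 over the alternatives and lower 1 to 5, that of AP-1 targets 7 to 8 and 3 to 5, that of MAP kinase genes 0 to 1 and 2 to 5, and that of EGR1 targets 5 to 6 and 1 to 2. For AP-1 relatives it was 3 and 2 to 3, for EGR relatives 0 to 1 and 1, and for serum response factor and CREB genes 0 to 2 and 1. Depth limits Fosb most, at under 1.5 reads per base in every library.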

Other observations

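The NR4A nuclear receptors, immediate early genes like Fos and Egr1, differed from each other, and were looked at after their values were seen. Nr4a1 had 18.7 and 9.49 TPM in YAP5SA, against 40.1 and 42.2 TPM in YAP5SA-S94A, so that it was lower in 2 of 2 YAP5SA libraries while Fos, Atf3 and Egr1 were higher in both (log2 fold change −1.55, SE 0.27, limma adjusted p = 0.00487). Nr4a3 had 1.42 and 1.95 TPM in YAP5SA, against 0.528 and 0.184 TPM in YAP5SA-S94A (log2 fold change 0.99, limma adjusted p = 0.0371). Its call was lost without YAP5SA replicate 2 (limma adjusted p = 0.0902), without YAP5SA-S94A replicate 2 (0.175) and with quantile normalization (0.0669). Nr4a2 had 2.24 and 2.88 TPM in YAP5SA, against 3.25 and 4.35 TPM in YAP5SA-S94A, and was not called (limma adjusted p = 0.202).

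The epicardial and mesothelial marker gene Upk3b had 22.4 and 18.2 TPM in YAP5SA, against 0.611 and 0.544 TPM in YAP5SA-S94A. Over the 5 genes of that list, summed levels were 32.5 to 36.9 TPM in YAP5SA and 14.8 to 16.8 TPM in YAP5SA-S94A, a gap that Upk3b carried. Of 4 tested genes 2, Upk3b and Msln, were called higher and 0 lower, where 17.4% of all tested genes were called higher. Msln had 3.69 and 3.99 TPM in YAP5SA, against 1.89 and 2.07 TPM in YAP5SA-S94A (limma adjusted p = 0.0417). Wt1 had 2.63 and 2.27 TPM in YAP5SA, against 3.10 and 2.83 TPM in YAP5SA-S94A. The part of such cells in the levels of Fosl1 or Egr1 was not tested.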
